A study of Homo sapiens with 9 samples.

Results

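The late response to a mix of protease inhibitors was read in HT1080 cells, an established human fibrosarcoma line, by comparing the 3 arrays of cells given the mix for 24 h with the 3 arrays of untreated cells. These are 6 of the 9 arrays measured, and the other 3 hold cells given the same mix for 4 h. All cells had been seeded on a collagen gel cast at 1.7 mg/ml and polymerized for 4 h, and had adhered for 24 h in medium with 10% fetal calf serum. The mix held GM6001 at 100 µM, with 50 µM pepstatin A, E64 at 250 µM, and 2 µM each of leupeptin and aprotinin. The untreated arrays are titled vehicle; the sources used here give neither the vehicle nor the time of their harvest, so a change with time in culture and a change with the mix cannot be told apart. The design text writes of a kinase inhibitor cocktail, whereas the protocol lists the protease inhibitors above, and the protocol was followed. The line is a tumour line with a fibroblast-like form, and the replicates are called biological in the design text, with no word on whether the cultures were set up separately.

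The main set is the 8838 genes with a mean intensity of 50 or more over the 9 arrays, of 19775 genes named on the array. Each gene is represented by its probe set of highest mean, a probe set being a group of short probes against 1 transcript region. Values below are deposited linear intensities. Changes are differences of log2(intensity + 16), 24 h minus untreated, with the standard error of the fit, and a fold is the antilog of that difference. A gene is called higher or lower where limma's adjusted p was under 0.05. "Kept in all 9 runs" means that the call also held in each of 9 fits that left out 1 array, and "called over all genes" means that it also held when all 19775 genes were fitted together.

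HT1080 cells digest collagen at their surface with membrane-bound and secreted metalloproteinases, and they degrade proteins inside lysosomes with aspartic and cysteine cathepsins. GM6001 chelates the zinc of metalloproteinases. Pepstatin A blocks aspartic proteases, E64 cysteine proteases, aprotinin serine proteases such as plasmin, and leupeptin both serine and cysteine proteases. The lysosome is also where cells free cholesterol from lipoproteins and amino acids from proteins.

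Some measures of the arrays moved with the treatment. Spiked-in bacterial poly-A RNAs, added to each sample during preparation, had a mean log2(intensity + 16) of 8.75 ± 0.07 (SD, n = 3) on untreated arrays and 9.94 ± 0.03 at 24 h, or 2.28-fold more (exact two-sided permutation p = 0.1, the smallest that 3 against 3 arrays allow). Hybridization controls differed 1.12-fold (exact permutation p = 0.2). The 5' to 3' ratio of ACTB, a sign of RNA integrity, was 0.893 ± 0.034 untreated and 0.697 ± 0.038 at 24 h (exact permutation p = 0.1), while that of GAPDH was 1.05 and 1.08. The part of these measures in the gene changes was not tested. Every array had been scaled to a trimmed mean of 100, and pairs of replicates correlated over expressed genes at 0.987 to 0.992 within groups.

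After 24 h, 575 expressed genes were higher (6.51%) and 567 were lower (6.42%), together 12.9% of those tested. The counts of called members in each gene list below are to be read beside these shares. Most of these changes were small. The median called rise was 0.53 and the median called fall -0.56 on the log2 scale, the smallest called change was 0.32, and only 18 rises and 21 falls reached 2-fold. The median over all expressed genes was 0.01, with quartiles at -0.19 and 0.19. The 3 arrays of 24 h all lay above or all below the 3 untreated arrays for 3704 genes, 41.9% of the expressed set. This held for 1139 of the 1142 called genes, so a lack of overlap, given below for single genes, adds little to a call. In bulk RNA of a culture, a change in the share of cells that express a gene and a change of RNA per cell cannot be told apart.

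**Figure D1:**
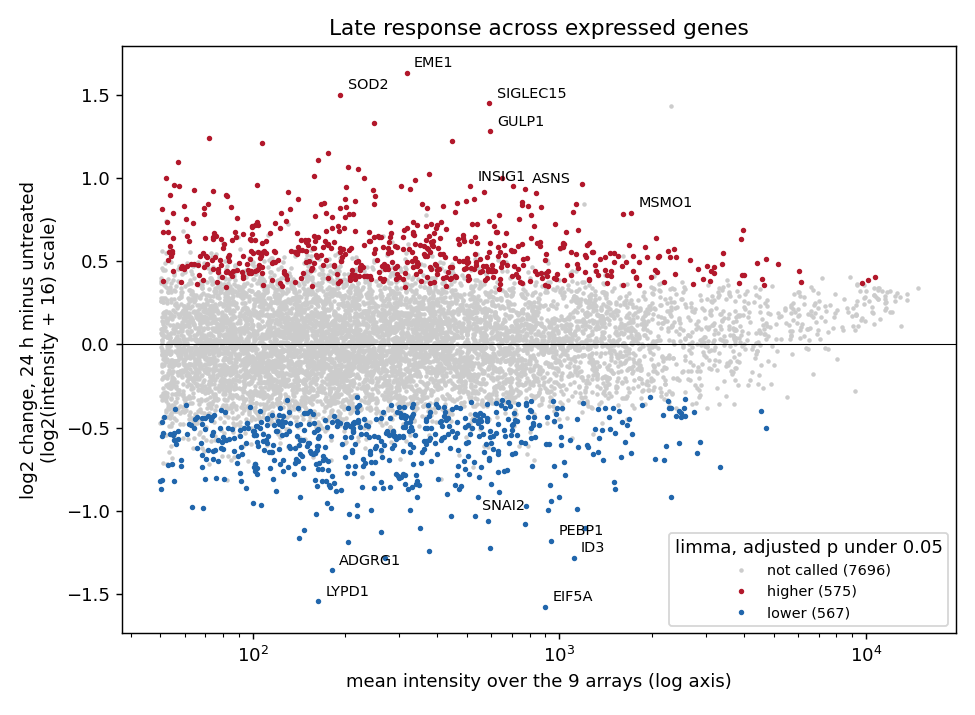
Log2 change (24 h minus untreated, log2(intensity + 16) scale) against the mean intensity over the 9 arrays (log axis) for the 8838 expressed genes. Red points are the 575 genes called higher, blue points the 567 called lower; calls lie at all intensities and few exceed a change of 1 in size.

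The number of calls depended on which genes were fitted together and on single arrays. Over all 19775 genes, 7827 of which had a mean under 16, 43 genes were higher and 50 lower (0.470%), and 80 of these 93 were among the 1142. The calls kept in all 9 runs numbered 129 higher and 132 lower. Leaving out untreated replicate 2 left 176 higher and 162 lower, and leaving out 24 h replicate 2 left 223 and 239. The 4 h arrays enter the comparison through the spread, and through the 9-array mean that sets the filter and the probe set of a gene: without 4 h replicate 2 the counts were 740 and 759. Of the 9 runs, 3 left out a 4 h array, and these shared 1081, 1137 and 1142 of the 1142 calls. A call kept in 3 runs can therefore have been lost in every run without an untreated or 24 h array. Of the 123 called genes picked by the naming rule given with the processing, 68 were kept in all 9 runs and 32 were called over all genes.

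**Figure D2:**
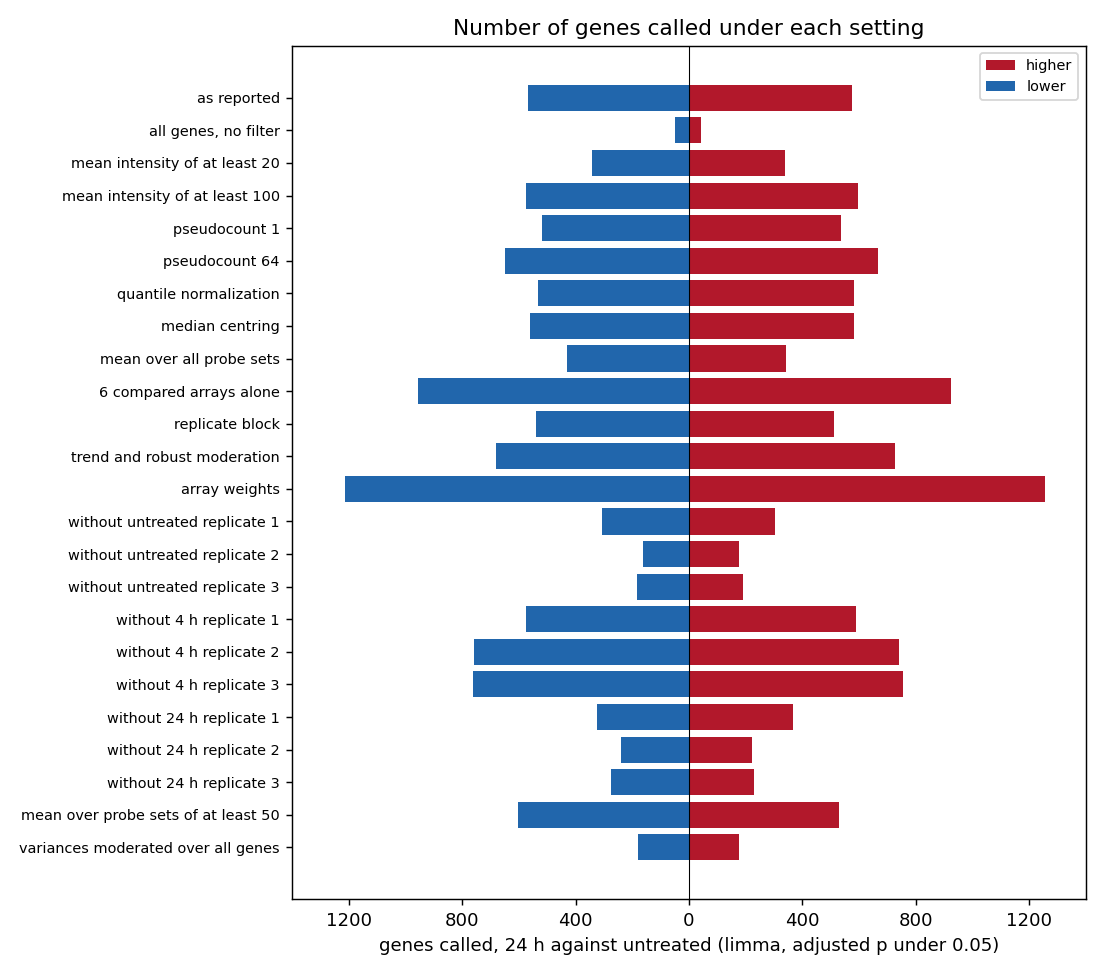
Number of genes called higher (red, to the right of 0) and lower (blue, to the left) in the comparison of 24 h with untreated, as reported and under each alternative; both sides of the axis count upwards from 0. The counts ranged from 43 higher and 50 lower over all genes to 1256 and 1215 with array weights; averaging all probe sets gave 343 higher and 431 lower.

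Most expressed genes of cholesterol synthesis and uptake were higher. Of 17 expressed members of a list of 19 measured genes, 11 were higher, 0 lower and 6 not called, beside 6.51% and 6.42% of all expressed genes, and the median change was 0.54 beside 0.01. Cholesterol is made from acetyl-CoA through mevalonate, squalene and lanosterol, and the genes are switched on by the factor SREBP2 when the membrane of the endoplasmic reticulum is poor in sterol. INSIG1, MSMO1, SQLE, NSDHL, HMGCS1, IDI1 and SC5D were the 7 kept in all 9 runs. INSIG1, MSMO1 and SQLE were also called over all genes.

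INSIG1 encodes the protein that holds the SREBP complex in the endoplasmic reticulum, and is itself a target of SREBP. Its intensity was 360.0, 359 and 381 on the untreated arrays and 738, 698 and 737 at 24 h (1.94-fold, log2 change 0.95 ± 0.12 SE, adjusted p = 0.00124), and the treated arrays all lay far above the untreated ones. MSMO1, the C4-methylsterol oxidase that acts on lanosterol derivatives, was at 1453, 1455 and 1480.3 untreated and at 2616, 2362 and 2677 at 24 h (1.73-fold, log2 change 0.79 ± 0.10 SE, adjusted p = 0.00171), with no overlap. NSDHL, which acts in the same removal of C4 methyl groups, was at 251, 228 and 273 untreated and at 571, 492 and 516 at 24 h (2.04-fold, log2 change 1.03 ± 0.17 SE, adjusted p = 0.00548). It had the largest rise of the list, again with no overlap, and its second probe set was called too. SQLE, the squalene epoxidase, went from 435 ± 33.9 to 729.8 ± 19.3 (1.66-fold, log2 change 0.73 ± 0.11 SE, adjusted p = 0.00422), and both of its other probe sets of mean 50 or more were called in the same direction.

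Other enzymes of the pathway were called too. HMGCS1, which makes HMG-CoA, rose by 0.82 (adjusted p = 0.00592). IDI1, the isopentenyl diphosphate isomerase, rose by 0.78 (adjusted p = 0.00784), and SC5D, the sterol C5 desaturase, by 0.66 (adjusted p = 0.0101). DHCR7, FDPS, HSD17B7 and ACAT2 were called at 0.43 to 0.55 and lost the call in 4 to 6 of the 9 runs. SREBF2, the gene of SREBP2 itself, had a change of -0.02 (adjusted p = 0.958), and the synthesis enzymes LSS and PMVK had -0.20 (adjusted p = 0.385) and -0.28 (adjusted p = 0.09).

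The promoters of INSIG1 and MSMO1 are shown because these genes are the markers of the sterol response and moved with the list; each runs from 250 bases before to 50 after the gene's start (RefSeq, GRCh38.p14), 5′ to 3′ on the gene's strand. Capitals mark the letters CCAAT, the box bound by NF-Y, or ATTGG, the same box on the other strand. INSIG1 lies on the plus strand at chr7:155297628-155297927, and MSMO1 on the plus strand at chr4:165327419-165327718.
INSIG1: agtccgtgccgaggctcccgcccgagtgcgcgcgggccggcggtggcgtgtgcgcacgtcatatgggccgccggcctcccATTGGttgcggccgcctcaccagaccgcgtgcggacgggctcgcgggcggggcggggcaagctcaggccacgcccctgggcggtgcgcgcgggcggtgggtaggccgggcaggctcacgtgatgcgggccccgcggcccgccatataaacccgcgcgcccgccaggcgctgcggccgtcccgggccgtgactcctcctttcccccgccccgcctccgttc
MSMO1: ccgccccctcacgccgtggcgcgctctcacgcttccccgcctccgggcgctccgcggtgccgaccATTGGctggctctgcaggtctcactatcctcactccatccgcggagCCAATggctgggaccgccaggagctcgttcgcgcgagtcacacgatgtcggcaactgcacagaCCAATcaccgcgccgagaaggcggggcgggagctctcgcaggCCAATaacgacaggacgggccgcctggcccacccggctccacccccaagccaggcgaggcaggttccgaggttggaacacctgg
The INSIG1 box began 170 bases before the start, and MSMO1 held 4, at 185, 139, 76 and 34 bases before it. CCAAT on either strand was found for all 9 called members of the list that had a promoter entry, in 11 of their 14 promoters, beside 34.6% of 35116 promoters. The box was not particular to this list. It was also in 4 of 6 promoters of called members of the BMP list and in 4 of 7 of the ATF4 list, both described below. The letters TCACCCCAC, the core of the classical sterol regulatory element, were in 0 of the 14 and in 0.43% of all promoters. These are matches of letters, which differ with base composition, and not measured binding.

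Sterol handling outside synthesis split. Of 11 expressed genes of sterol export and lysosomal sterol handling, 3 were higher and 1 was lower, with a median of 0.04. SCARB1, the receptor that takes up cholesterol from high-density lipoprotein, fell from 142 ± 10.3 to 77.4 ± 7.1 (1.69-fold lower, log2 change -0.76 ± 0.15 SE, adjusted p = 0.00931). MYLIP, a ligase that marks the LDL receptor for degradation and is a target of the oxysterol receptor LXR, rose from 41.1 ± 8.5 to 71.1 ± 3.0 (1.54-fold, log2 change 0.62 ± 0.13 SE, adjusted p = 0.0114). Its untreated mean was under 50, so that it passed the filter through the treated arrays, and with all its probe sets averaged its adjusted p was 0.111. ABCA1, the cholesterol exporter, was called at 0.56 (adjusted p = 0.0243) and lost the call without untreated replicate 1, 2 or 3 or 24 h replicate 3 (up to 0.0884). LIPA, the lysosomal acid lipase that frees cholesterol from its esters, was called at 0.41 (adjusted p = 0.0385). It kept the call in 3 of 9 runs, only those that left out a 4 h array. None of the 4 calls held over all genes.

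Of 14 expressed genes of fatty acid synthesis and lipins, 2 were higher and 0 lower, and the median was 0.12. The share called, 14.3%, was close to the 12.9% of all expressed genes. LPIN1, a phosphatidate phosphatase, was at 95.4, 115 and 106 untreated and at 226, 238 and 221 at 24 h (2.02-fold, log2 change 1.01 ± 0.13 SE, adjusted p = 0.00206). Its groups did not overlap, but a second probe set, at 141 untreated and 136 at 24 h, did not share the rise (change -0.05). ME1, the cytosolic malic enzyme that supplies NADPH, rose from 1323 ± 39.3 to 1921 ± 87.2 (1.45-fold, log2 change 0.53 ± 0.10 SE, adjusted p = 0.00982), and lost the call when all its probe sets were averaged (adjusted p = 0.47).

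Among the ID genes, ID1 and ID3 fell. They encode proteins that bind and silence basic helix-loop-helix transcription factors, and they are direct targets of BMP signalling through SMAD1 and SMAD5. ID3 was at 1497, 1629 and 1751 untreated and at 664, 667 and 639.6 at 24 h (2.44-fold lower, log2 change -1.28 ± 0.10 SE, adjusted p = 0.000145). The groups lay far apart, and the 3 treated arrays stood close together. ID1 was at 1439.9, 1583 and 1407 untreated and at 732, 704 and 769 at 24 h (1.99-fold lower, log2 change -0.99 ± 0.11 SE, adjusted p = 0.000967), with no overlap. Both were kept in all 9 runs and called over all genes, and each rests on 1 probe set of mean 50 or more.

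Of the 17 expressed genes of the BMP list, 1 was higher and 3 were lower, with a median of -0.18. The remaining fall was FST, follistatin, a secreted binder of activins and BMPs, from 132 ± 5.8 to 59.5 ± 5.3 (1.96-fold lower, log2 change -0.97 ± 0.17 SE, adjusted p = 0.00592). The rise was BMPR1B, a type I BMP receptor, at 0.63 (adjusted p = 0.0195), which kept the call in 5 of 9 runs. In the TGF-beta list 1 of 22 was higher and 4 were lower, with a median of -0.19. TGFBR2, the type II receptor that binds the ligand, was at 980.4, 1107 and 1099 untreated and at 488, 578 and 532 at 24 h (1.97-fold lower, log2 change -0.98 ± 0.11 SE, adjusted p = 0.000967). Its groups lay far apart and its second probe set was called lower too. TGFBI, a matrix protein named for its induction by TGF-beta, fell from 843 ± 59.9 to 529 ± 28.0 (1.57-fold lower, log2 change -0.65 ± 0.11 SE, adjusted p = 0.0058). LTBP3, which stores latent TGF-beta in the matrix, fell by 0.63 (adjusted p = 0.0161) and TGFBR3, the co-receptor betaglycan, rose by 0.65 (adjusted p = 0.0173), each kept in 6 of 9 runs; averaged over probe sets of 50 or more, neither stayed called (adjusted p = 0.0645 and 0.0553).

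The ID3 and ID1 promoters are printed because both genes fell together. ID3 lies on the minus strand at chr1:23559452-23559751 and ID1 on the plus strand at chr20:31605039-31605338 (RefSeq, GRCh38.p14); capitals mark CAGAC, the SMAD box, searched on both strands.
ID3: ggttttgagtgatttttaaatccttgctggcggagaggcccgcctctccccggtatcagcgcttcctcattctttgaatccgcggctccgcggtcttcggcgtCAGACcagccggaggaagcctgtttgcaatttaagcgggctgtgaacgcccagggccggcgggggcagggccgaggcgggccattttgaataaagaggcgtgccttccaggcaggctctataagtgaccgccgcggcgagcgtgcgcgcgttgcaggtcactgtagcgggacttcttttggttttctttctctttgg
ID1: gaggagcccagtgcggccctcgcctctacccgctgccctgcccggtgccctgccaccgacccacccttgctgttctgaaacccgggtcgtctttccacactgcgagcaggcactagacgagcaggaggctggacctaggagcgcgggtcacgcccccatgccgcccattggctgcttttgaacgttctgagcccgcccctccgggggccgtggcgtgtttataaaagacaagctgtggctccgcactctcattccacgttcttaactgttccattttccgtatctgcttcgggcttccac
ID3 held 1 match, 147 bases before the start, and ID1 held 0. The letters occur in 45.3% of all promoters, so a match is common, and a window without one says nothing of SMAD binding elsewhere.

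SNAI2 encodes the repressor Slug, which holds mesenchymal cells in their state. It was at 735, 743 and 819.5 untreated and at 368, 382 and 349 at 24 h (2.04-fold lower, log2 change -1.03 ± 0.12 SE, adjusted p = 0.000967), with no overlap, and the call was kept in all 9 runs and over all genes. Its list of mesenchymal factors and markers had calls in both directions: 1 of 12 expressed genes was higher, 2 were lower, and the median was -0.03. FN1, fibronectin, was the other fall, by 0.51 (adjusted p = 0.0362), and 3 of its other probe sets were called lower too, though its call was kept in only 3 of 9 runs. CDH2, N-cadherin, rose by 0.65 (adjusted p = 0.0188), kept in 4 of 9. FOXC2 had a change of -0.31 (adjusted p = 0.101).

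**Figure D3:**
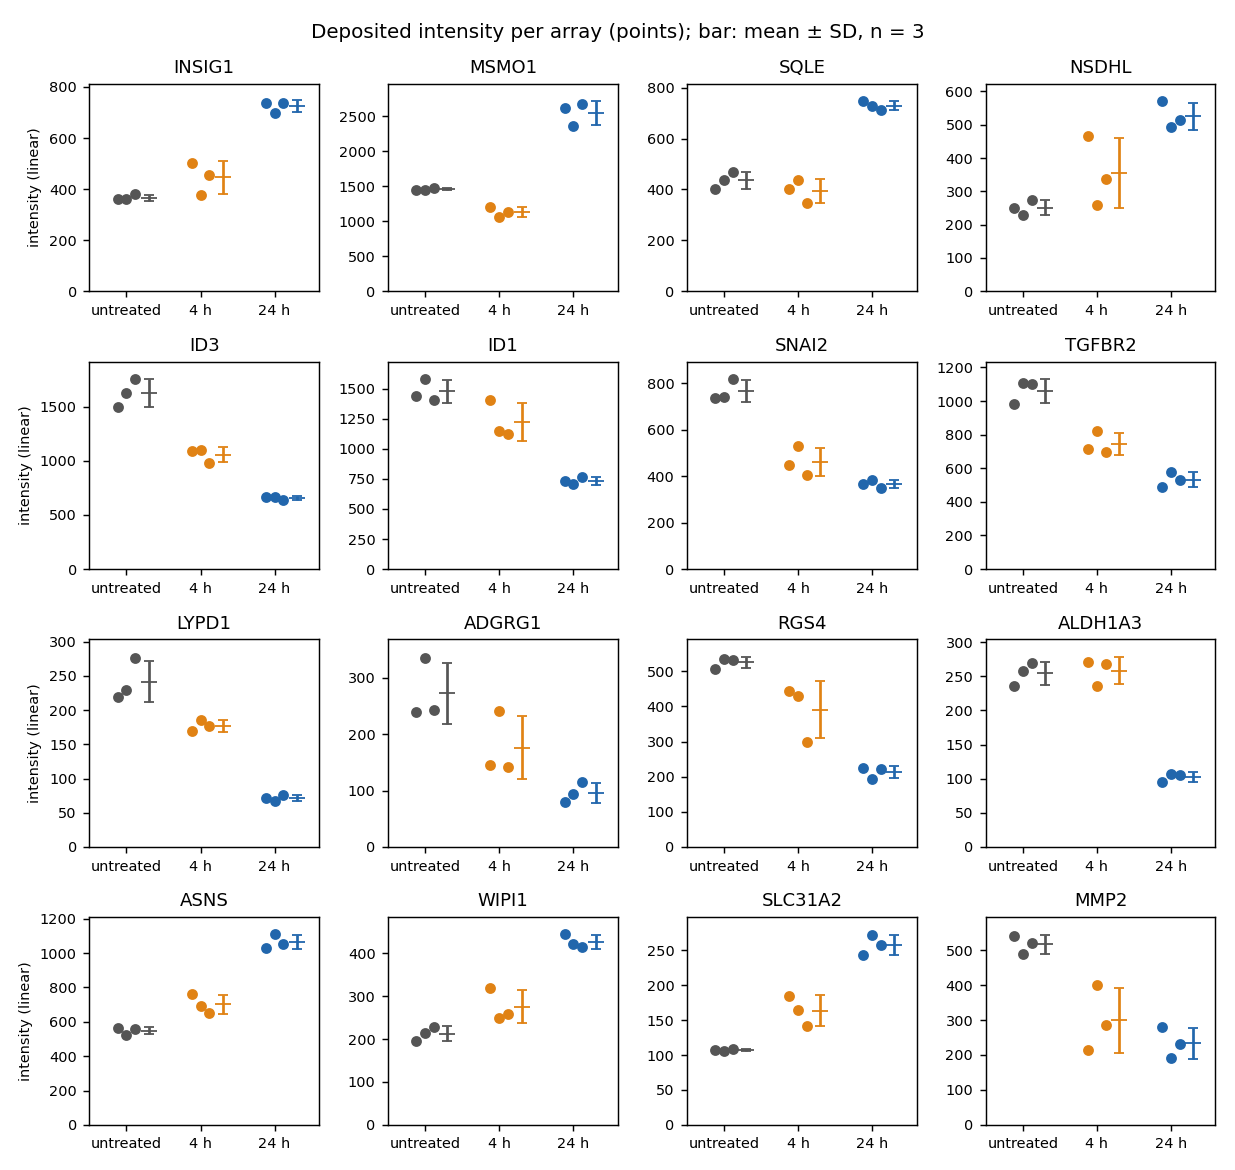
Deposited linear intensity of 16 genes on each array (points) with mean ± SD to the right of them, for untreated (grey), 4 h (orange) and 24 h (blue) arrays, n = 3 each. In every panel the 24 h points lie all above or all below the untreated points; MSMO1 and ALDH1A3 at 4 h lie under or among the untreated points, while ID3 and SNAI2 are already lower at 4 h.

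Genes of collagens, of other matrix proteins and of cell adhesion were mostly lower where they were called. Of 19 expressed genes of collagens and collagen crosslinking, 1 was higher and 6 were lower (median -0.17); of 23 matrix glycoproteins and proteoglycans, 0 and 5 (median -0.15); of 27 genes of integrins and focal adhesions, 0 and 5 (median -0.22). LOX, lysyl oxidase, which crosslinks collagen and elastin, was at 373, 413 and 392 untreated and at 209.7, 238 and 190.5 at 24 h (1.79-fold lower, log2 change -0.84 ± 0.13 SE, adjusted p = 0.00426), with no overlap. SERPINH1, the collagen chaperone HSP47, was at 362, 380.3 and 389 untreated and at 110.1, 190.3 and 144 at 24 h (2.44-fold lower, log2 change -1.29 ± 0.21 SE, adjusted p = 0.0053). The SERPINH1 groups did not overlap either, with more spread among the treated arrays than for LOX. COL13A1, a transmembrane collagen, fell from 761 ± 15.1 to 529 ± 23.4 (1.43-fold lower, log2 change -0.51 ± 0.10 SE, adjusted p = 0.00885), and lost the call when its probe sets of 50 or more were averaged (adjusted p = 0.0681). The rise was P4HA2, a subunit of the prolyl hydroxylase that stabilizes collagen, from 296 ± 31.2 to 503 ± 24.9 (1.67-fold, log2 change 0.74 ± 0.12 SE, adjusted p = 0.00488); averaged over all its probe sets it was not called (change 0.28, adjusted p = 0.141).

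Adhesion genes that fell and were kept in all 9 runs were BCAR1, the adapter p130Cas that passes on integrin signals, and CAV1, the coat protein of caveolae. BCAR1 fell from 157 ± 9.5 to 89.2 ± 8.6 (1.65-fold lower, log2 change -0.72 ± 0.12 SE, adjusted p = 0.00527) and CAV1 from 3049 ± 66.4 to 2018 ± 156 (1.51-fold lower, log2 change -0.59 ± 0.10 SE, adjusted p = 0.00567). A second probe set of CAV1 was called lower, whereas BCAR1 averaged over all its probe sets had an adjusted p of 0.648. ITGA3, a laminin-binding integrin chain, fell by 0.65 (adjusted p = 0.0112) and lost the call only without untreated replicate 2 (0.0518). ITGA6, another laminin receptor chain, fell by 0.70 (adjusted p = 0.0165) and lost it without untreated replicate 2 or 24 h replicate 2 (up to 0.0641). Among glycoproteins, SDC1, syndecan-1, and THBS2, thrombospondin-2, were lower by 0.47 and 0.51 (adjusted p = 0.0226 and 0.0266), each kept in 4 of 9 runs.

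SRF and its partner MRTF drive genes of the actin cytoskeleton when actin is polymerized. Of 20 expressed targets, 0 were higher and 7 were lower, with a median of -0.29. MYL9, the regulatory light chain of non-muscle and smooth-muscle myosin, fell from 459 ± 21.0 to 252 ± 8.5 (1.77-fold lower, log2 change -0.82 ± 0.13 SE, adjusted p = 0.00488) and was kept in all 9 runs; averaged over all its probe sets its adjusted p was 0.0769. TAGLN, transgelin, was lower by 0.70 (adjusted p = 0.0166, kept in 5 runs), CNN2, calponin-2, by 0.59 (adjusted p = 0.0311, kept in 4) and CALD1, caldesmon, by 0.46 (adjusted p = 0.0311, kept in 3). TAGLN and CALD1 had other probe sets called lower. Targets of YAP and TEAD, which also answer to tension, had calls in both directions: 2 of 19 were higher, 4 were lower and the median was 0.03. F3, tissue factor, fell from 149 ± 3.2 to 85.4 ± 15.9 (1.64-fold lower, log2 change -0.72 ± 0.14 SE, adjusted p = 0.00982, kept in all 9 runs). GADD45B was lower by 0.67 (adjusted p = 0.0123) and lost the call only without untreated replicate 3 (0.0558), FOXF2 was lower by 0.67 (adjusted p = 0.0158, kept in 6 runs), and LATS2, a kinase that restrains YAP, was higher by 0.58 (adjusted p = 0.0385, kept in 4).

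Of 7 proteases chosen for the inhibited classes, MMP2 and CTSB fell, while MMP14, MMP1, CTSD, CTSL and PLAU did not pass the test. MMP2, the secreted gelatinase A, was at 541, 488 and 520.0 untreated and at 279, 191 and 231 at 24 h (2.15-fold lower, log2 change -1.11 ± 0.19 SE, adjusted p = 0.00583), with no overlap; it was kept in all 9 runs and lost over all genes. CTSB, cathepsin B, a cysteine protease of the lysosome, was at 2077, 2121 and 2068 untreated and at 1402, 1227 and 1276 at 24 h (1.60-fold lower, log2 change -0.68 ± 0.13 SE, adjusted p = 0.00982), and its 4 other probe sets of 50 or more all pointed down, 2 of them called. MMP14, the membrane-anchored collagenase that activates MMP2, had 404 ± 25.8 untreated and 303 ± 7.5 at 24 h (change -0.39, adjusted p = 0.122). Its other probe sets of 50 or more pointed down by more, with changes of -0.64, -0.50 and -0.66. None of them was called in the fit over probe sets (adjusted p = 0.0537, 0.158 and 0.135). MMP1, interstitial collagenase, had 308 ± 15.6 and 257 ± 12.0 (change -0.25, adjusted p = 0.133). The change was -0.37 for CTSD, cathepsin D (adjusted p = 0.214), -0.19 for CTSL, cathepsin L (adjusted p = 0.288), and -0.20 for PLAU, urokinase (adjusted p = 0.409).

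Over whole classes, 1 of 9 expressed metalloproteinases and inhibitors was higher and 3 were lower (median -0.39), 1 and 2 of 8 cathepsins and cystatins (median -0.22), and 0 and 4 of 10 genes of the plasminogen system and secreted serine proteases (median -0.39). CST3, cystatin C, the natural inhibitor of cysteine cathepsins, fell from 864 ± 50.0 to 406 ± 33.9 (2.09-fold lower, log2 change -1.06 ± 0.16 SE, adjusted p = 0.00414) and was called over all genes, but averaged over all its probe sets its adjusted p was 0.139. Inhibitors of metalloproteinases moved both ways. TIMP2, which also helps MMP14 activate MMP2, was lower by 0.62 (adjusted p = 0.0246, kept in 4 runs), and RECK, a membrane-anchored inhibitor, was higher by 0.79 (adjusted p = 0.0222, kept in 5). MMP3, stromelysin-1, was lower by 0.68 (adjusted p = 0.0164, kept in 6), PCSK7, a proprotein convertase, by 0.75 (adjusted p = 0.0157, kept in 6), and HTRA1, a secreted serine protease, by 0.64 (adjusted p = 0.0233, kept in 4). SERPINH1 and F3, described above, were the other falls of the plasminogen list. Neither is a protease, and SERPINH1 is also counted in the collagen list and F3 among the YAP and TEAD targets.

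Proteasome subunits were called in the rising direction, by small amounts. Of 29 expressed genes, 10 were higher and 0 lower, with a median of 0.30. The median was 0.22 after quantile normalization. The proteasome degrades ubiquitin-tagged proteins in cytosol and nucleus. PSMB6, a catalytic-ring subunit, was at 1560.2, 1645 and 1662 untreated and at 2384, 2519 and 2434 at 24 h (1.50-fold, log2 change 0.59 ± 0.11 SE, adjusted p = 0.00753), with no overlap. PSMC2, an ATPase of the cap, was at 3084, 3150.1 and 3223 untreated and at 5057, 4522 and 5178 at 24 h (1.55-fold, log2 change 0.64 ± 0.11 SE, adjusted p = 0.00567). These 2 were kept in all 9 runs. PSMC2 has a dim probe set at 70.1 and 68.0 that did not rise and lost the call when its probe sets were averaged (adjusted p = 0.142). PSMD11 and PSMA1 were higher by 0.55 and 0.49 (adjusted p = 0.0191 and 0.0198), each kept in 4 runs, and a second probe set of PSMD11 pointed the other way (change -0.16). No proteasome gene was called over all genes.

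Among targets of NRF2, the factor that answers oxidative and electrophilic stress, 10 of 24 were higher, 0 lower and 14 not called, with a median of 0.35. HMOX1, heme oxygenase-1, was at 508, 548 and 559 untreated and at 830.3, 945 and 904 at 24 h (1.64-fold, log2 change 0.71 ± 0.12 SE, adjusted p = 0.0047), with no overlap. AKR1C3, an aldo-keto reductase, rose by 0.61 (adjusted p = 0.0123) and lost the call only without untreated replicate 2 (0.0577); its probe set cannot be told with certainty from those of near-identical family members. SQSTM1, the autophagy receptor p62, rose by 0.49 (adjusted p = 0.0165, kept in 5 runs), and after quantile normalization its adjusted p was 0.0567. A second probe set of SQSTM1 went from 355 to 767 (change 1.08) and was called higher. Averaged over probe sets of 50 or more, the SQSTM1 change was 0.69 (adjusted p = 0.00696). Averaged over all, dim ones included, it was 0.19 (adjusted p = 0.266). ME1, described above, is also on this list. None of the 10 was called over all genes.

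Autophagy and lysosomal genes had calls in both directions. Of 34 expressed autophagy genes 8 were higher and 2 lower (median 0.24), of 26 genes of the V-ATPase, Ragulator and TFEB control 4 and 1 (median 0.22), and of 29 lysosomal hydrolases and membrane proteins 5 and 2 (median 0.03; -0.06 with probe sets averaged). WIPI1, which reads the lipid of forming autophagosomes, was at 195, 215 and 228 untreated and at 444, 421 and 415 at 24 h (1.94-fold, log2 change 0.95 ± 0.12 SE, adjusted p = 0.00132). Its groups did not overlap, a second probe set was called too, and the call held over all genes. ATG2B, a lipid-transfer protein of the same step, rose from 55.0 ± 1.25 to 96.1 ± 10.6 (1.57-fold, log2 change 0.65 ± 0.11 SE, adjusted p = 0.0049), but with all its probe sets averaged its adjusted p was 0.296. RRAGC, a small GTPase that recruits mTORC1 to the lysosome, rose from 831 ± 24.0 to 1518 ± 216 (1.80-fold, log2 change 0.85 ± 0.14 SE, adjusted p = 0.0047). GLA, the lysosomal alpha-galactosidase A, was at 655, 657 and 622 untreated and at 1229.8, 1064 and 1179.6 at 24 h (1.77-fold, log2 change 0.83 ± 0.15 SE, adjusted p = 0.00658), the largest rise among the hydrolases. BNIP3, a mitophagy receptor, and LAMTOR4, a Ragulator subunit, were lower by 0.44 and 0.42 (adjusted p = 0.0173 and 0.0238), kept in 5 and 4 runs. NAGLU, a heparan sulfate hydrolase, was lower by 0.64 (adjusted p = 0.0242, kept in 5), while LGMN, the lysosomal legumain, and PPT1, palmitoyl-protein thioesterase, were higher by 0.47 and 0.45 (adjusted p = 0.0225 and 0.0254), kept in 5 and 3. PPT1 lost the call in every run that left out an untreated or 24 h array.

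In the list of zinc and copper transporters 4 of 16 were higher and 0 lower, with a median of 0.05, and 3 of the 4 carry copper. SLC31A2, a copper transporter of endosomes and lysosomes, was at 107, 107 and 108 untreated and at 244, 272 and 258 at 24 h (2.22-fold, log2 change 1.15 ± 0.11 SE, adjusted p = 0.000494). The untreated arrays were almost equal, the groups did not overlap, and the call held over all genes. ATP7A, the copper pump of the Golgi, rose from 86.2 ± 6.8 to 163 ± 9.3 (1.76-fold, log2 change 0.81 ± 0.13 SE, adjusted p = 0.00505), and SLC31A1, the copper importer of the cell surface, from 271 ± 19.6 to 444 ± 33.6 (1.60-fold, log2 change 0.68 ± 0.14 SE, adjusted p = 0.0108). All 3 were kept in all 9 runs. The other call of the list, the zinc transporter SLC30A7, rested on 1 of 3 probe sets (0.48, adjusted p = 0.0446, kept in 2 runs; 0.367 averaged over probe sets of 50 or more). Of 6 expressed metallothioneins, small proteins that bind both metals, 2 were higher and 0 lower (median 0.32, and 0.22 after quantile normalization). MT1H rose by 0.52 (adjusted p = 0.00909, kept in all 9 runs), and MT2A by 0.37 (adjusted p = 0.0377), which was not called after quantile normalization (0.327). Probe sets of metallothioneins cannot be told apart with certainty.

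ATF4, the factor of the amino acid response, has ASNS, asparagine synthetase, as its best known target. ASNS was at 562, 524 and 559 untreated and at 1032, 1111 and 1052 at 24 h (1.92-fold, log2 change 0.94 ± 0.10 SE, adjusted p = 0.000844), with no overlap, and was called over all genes. SLC38A2, an amino acid importer, rose from 1847 ± 45.5 to 2763 ± 76.8 (1.49-fold, log2 change 0.58 ± 0.11 SE, adjusted p = 0.00915), and CTH, which makes cysteine from cystathionine, from 142 ± 3.9 to 227 ± 29.8 (1.53-fold, log2 change 0.61 ± 0.12 SE, adjusted p = 0.00982). STC2, stanniocalcin-2, went the other way, from 233 ± 13.2 to 137 ± 11.8 (1.63-fold lower, log2 change -0.71 ± 0.12 SE, adjusted p = 0.00492). These 4 were kept in all 9 runs, while the list had calls in both directions: 5 of 33 were higher, 2 were lower and the median was 0.12. Of 17 cytosolic aminoacyl-tRNA synthetases, which load amino acids onto tRNA, 4 were higher and 1 lower, with a median of 0.31. EPRS1, GARS1 and YARS1 were higher by 0.69, 0.52 and 0.45 (adjusted p = 0.0141, 0.0184 and 0.0178), kept in 5, 5 and 4 runs. SARS1 rose by its brightest probe set, from 1276 ± 42.1 to 1875 ± 79.8 (1.46-fold, log2 change 0.55 ± 0.10 SE, adjusted p = 0.00834), while its other probe set went from 121 to 63.7 (change -0.78).

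The ASNS promoter was added after the values were seen, because its amino acid response element is well described; it lies on the minus strand at chr7:97872359-97872658 (RefSeq, GRCh38.p14, 1 of 2 promoters listed). Capitals mark TGATGNAA, the core of that element, searched on both strands.
ASNS: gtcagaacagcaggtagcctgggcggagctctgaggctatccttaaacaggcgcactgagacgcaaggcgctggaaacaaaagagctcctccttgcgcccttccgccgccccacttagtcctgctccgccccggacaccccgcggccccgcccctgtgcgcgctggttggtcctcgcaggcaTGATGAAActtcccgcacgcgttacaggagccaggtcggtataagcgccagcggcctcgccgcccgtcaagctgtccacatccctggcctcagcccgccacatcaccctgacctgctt
The match began 68 bases before the start, and these letters occur in 3.62% of all promoters. Among called members of the ATF4 list with a promoter entry it was found for 1 of 5.

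The list of G protein regulators and adhesion receptors held 2 of the 15 largest falls. RGS4, which shortens G protein signals, was at 508, 535 and 532 untreated and at 224, 192 and 222 at 24 h (2.37-fold lower, log2 change -1.24 ± 0.14 SE, adjusted p = 0.000967), and both other probe sets were called lower. ADGRG1, the adhesion receptor GPR56 that binds matrix ligands, was at 238, 334 and 243 untreated and at 80.4, 93.1 and 114 at 24 h (2.56-fold lower, log2 change -1.36 ± 0.20 SE, adjusted p = 0.00289). These were the only calls among the 12 expressed genes of the list (0 higher, 2 lower, median -0.15), or 16.7% beside 12.9% of all expressed genes. PEBP1, the RAF kinase inhibitor protein, fell from 1406 ± 38.9 to 612 ± 41.7 (2.27-fold lower, log2 change -1.18 ± 0.17 SE, adjusted p = 0.00339), yet another probe set of nearly the same brightness stayed at 863 and 828 (change -0.06). A dimmer probe set of PEBP1 went from 586 to 399.5 (change -0.53) and was called lower. EGR1, an immediate early factor, rose from 47.0 ± 8.4 to 81.3 ± 8.0 (1.55-fold, log2 change 0.63 ± 0.12 SE, adjusted p = 0.00937). Its untreated mean was under 50, so that it passed the filter through the treated arrays. Its mean over the 9 arrays, 102, lay above both values, so EGR1 stood higher at 4 h than at 24 h. With PHLDA1, lower by 0.43 (adjusted p = 0.0238, kept in 4 runs), the 18 ERK feedback and target genes had 1 higher and 2 lower (16.7% called, beside 12.9% of all expressed genes). The other PHLDA1 probe sets of 50 or more all pointed down. Those with changes of -0.69, -0.83 and -1.08 were called, and those at -0.45 and -0.32 were not. EGFR was the only call of 8 EGF family genes (0.56, adjusted p = 0.0433, kept in 4 runs, 0.232 averaged over probe sets of 50 or more), or 12.5% beside 12.9% of all expressed genes.

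NF-kB targets moved both ways, 4 of 14 higher and 3 lower (median 0.15). IL1B, the cytokine interleukin-1 beta, was at 1609.6, 1759 and 1818 untreated and at 913, 954 and 942 at 24 h (1.83-fold lower, log2 change -0.87 ± 0.11 SE, adjusted p = 0.00201), with a second probe set called lower too. NFKBIA, which holds NF-kB in the cytosol, was at 594, 519 and 601 untreated and at 939, 979 and 943 at 24 h (1.65-fold, log2 change 0.73 ± 0.11 SE, adjusted p = 0.00352). Neither gene's groups overlapped, and both were called over all genes. SOD2, the mitochondrial superoxide dismutase, rose from 91.7 ± 14.3 to 296 ± 89.9 (2.84-fold, log2 change 1.50 ± 0.24 SE, adjusted p = 0.00473), with 24 h replicate 3 at 399 and the other treated arrays at 243 and 245. The SOD2 change rests on 1 probe set only. TNFAIP8 fell from 153 ± 10.8 to 102 ± 4.7 (1.44-fold lower, log2 change -0.52 ± 0.10 SE, adjusted p = 0.00982), and with all its probe sets averaged its adjusted p was 0.0891.

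Of 20 expressed p53 targets, 0 were higher and 2 lower, or 10% called beside 12.9% of all expressed genes. GADD45A, a stress-induced growth arrest gene, was at 601, 609.7 and 612 untreated and at 326, 330.2 and 331 at 24 h (1.81-fold lower, log2 change -0.85 ± 0.12 SE, adjusted p = 0.00216), with hardly any spread within either group, and PLK2 was lower by 0.43 (adjusted p = 0.0267, kept in 4 runs). CDKN1A, the inhibitor p21, had 1163 ± 46.7 untreated and 885 ± 15.6 at 24 h (change -0.39, adjusted p = 0.0584). Of 30 mitosis genes 1 was higher and 5 lower, where 6.51% and 6.42% of all expressed genes were (median -0.12), none kept in all 9 runs; CDK1 was lower by 0.60 (adjusted p = 0.0228, kept in 6) and 0.119 averaged over probe sets of 50 or more, PLK1 by 0.77 (adjusted p = 0.0333, kept in 3), PRC1 by 0.45 (adjusted p = 0.0177, kept in 5), and TTK was higher by 0.50 (adjusted p = 0.0324, kept in 4). Of 29 DNA replication genes 0 were higher and 1 was lower, GINS3 at -0.47 (adjusted p = 0.0268, kept in 3).

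Chaperones of the endoplasmic reticulum had 2 of 22 higher, SEL1L and DERL1, and 2 lower, PDIA4 and HYOU1 (changes 0.45, 0.48, -0.84 and -0.46), none kept in all 9 runs. SEL1L had 2 other probe sets pointing down. Of 13 genes of a heat shock list written as cytosolic, 0 were called. HSPE1, a mitochondrial chaperonin that the list also holds, had the smallest p and a change of -0.21 (adjusted p = 0.173). Of 24 hypoxia and glycolysis genes 0 were higher and 2 lower: BNIP3, and VEGFA at -0.35 (adjusted p = 0.044, kept in 3). The other VEGFA probe sets of 50 or more had changes of -0.45, -0.76 and -0.67. Each was called in the fit over probe sets (adjusted p = 0.0352, 0.0264 and 0.0313). Of 19 ribosomal proteins 0 were called; their median of 0.20 became -0.003 after quantile normalization. RPL27A, a ribosomal protein gene outside that list, is given with the largest changes below.

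**Figure D4:**
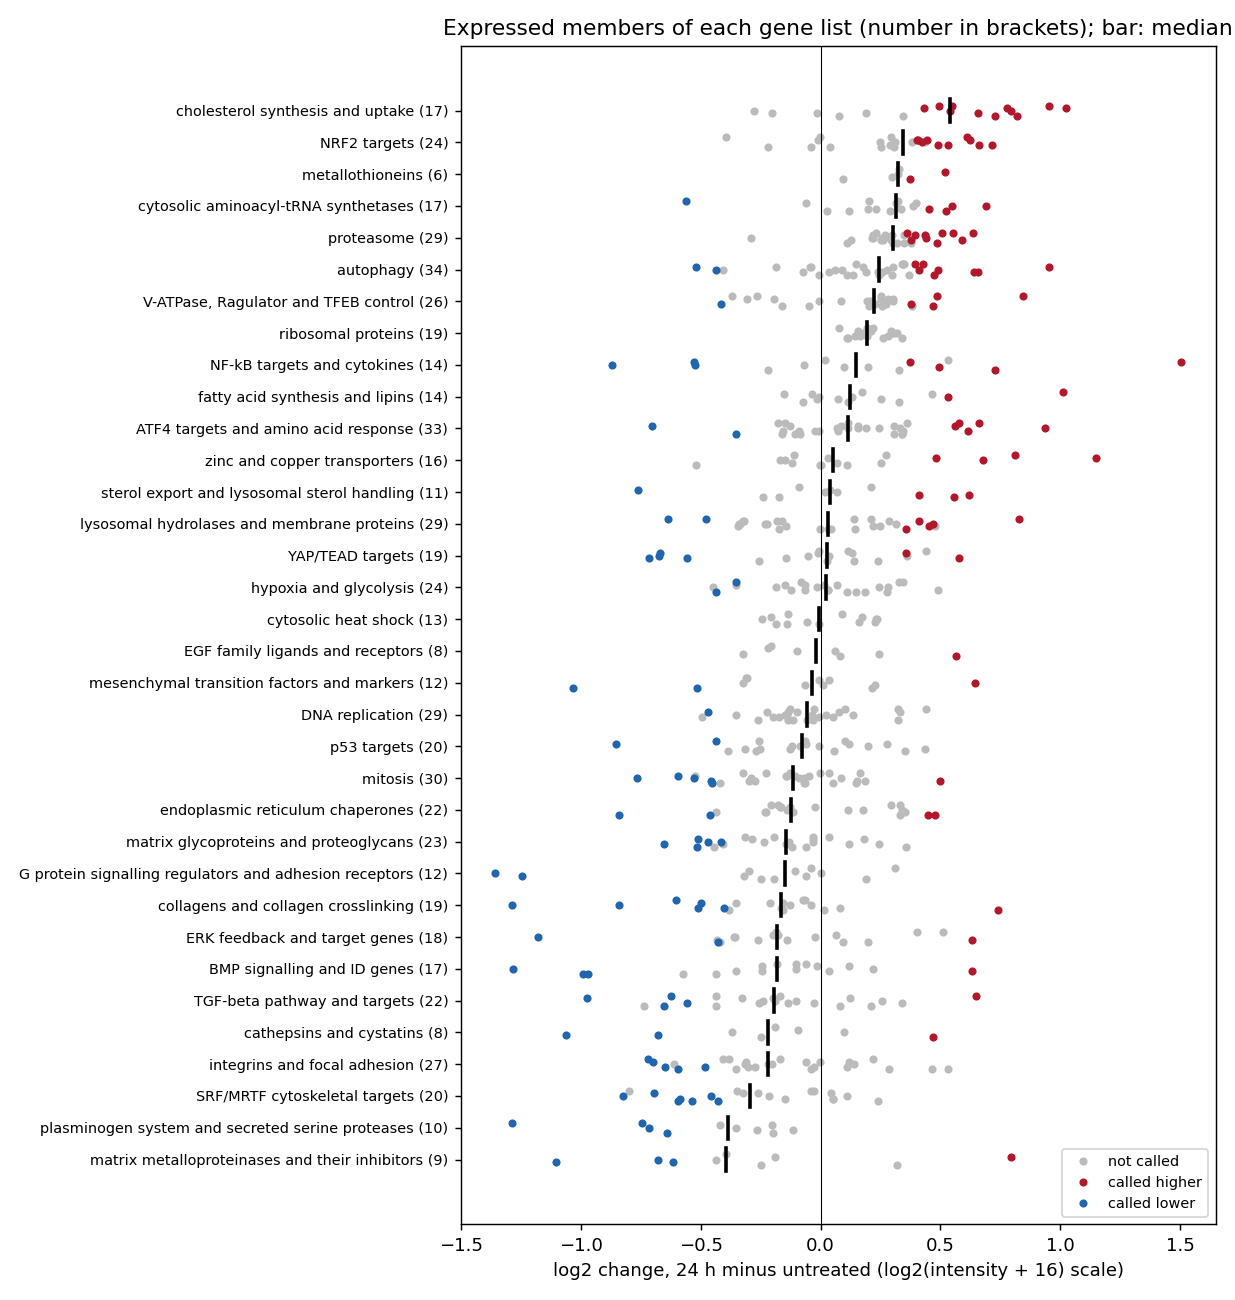
Log2 change (24 h minus untreated, log2(intensity + 16) scale) of every expressed member of 34 gene lists, ordered by median (black bar), with called members in red (higher) and blue (lower). Cholesterol synthesis stands at the top with a median of 0.54 and 0 members called lower, the metalloproteinase list at the bottom with -0.39; the ribosomal list has 0 calls, and its median is -0.003 after quantile normalization.

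The largest falls were led by EIF5A, a translation elongation factor, and LYPD1, a GPI-anchored relative of the LY6 proteins. LYPD1 was at 219, 229.6 and 276 untreated and at 71.8, 67.2 and 76.4 at 24 h (2.92-fold lower, log2 change -1.55 ± 0.11 SE, adjusted p = 7.8e-05). It had the smallest adjusted p of all expressed genes, and its groups lay far apart. EIF5A was at 1172, 1503 and 1573 untreated and at 499, 499.9 and 390.1 at 24 h (2.98-fold lower, log2 change -1.58 ± 0.34 SE, adjusted p = 0.0146). Its 4 h arrays were spread from 426 to 1493, it lost the call without untreated replicate 2 or 3 or 24 h replicate 3 (up to 0.056), and with all probe sets averaged the adjusted p was 0.0625; pseudogenes may share its probes. ALDH1A3, which makes retinoic acid, fell from 254 ± 17.2 to 102 ± 6.7 (2.28-fold lower, log2 change -1.19 ± 0.11 SE, adjusted p = 0.000286). FAM20C, the kinase of secreted proteins, fell from 347 ± 14.5 to 150.1 ± 13.8 (2.19-fold lower, log2 change -1.13 ± 0.12 SE, adjusted p = 0.000841).

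MELTF, melanotransferrin, an iron-binding surface protein, fell from 848 ± 40.6 to 354 ± 15.5 (2.34-fold lower, log2 change -1.22 ± 0.14 SE, adjusted p = 0.00111), and a second probe set was called lower. NEFL, the light neurofilament, fell from 1730.1 ± 47.8 to 798 ± 79.0 (2.15-fold lower, log2 change -1.10 ± 0.13 SE, adjusted p = 0.000967), with a second probe set called lower and a dim further one at 107 and 112. HMGB3, a chromatin protein, RRS1, a ribosome assembly factor, and CDC42EP1, an effector of CDC42, had changes of -1.17, -1.08 and -1.12 (adjusted p = 0.00387, 0.00339 and 0.0165). CDC42EP1 lost the call without untreated replicate 2 or 3 (up to 0.0581). With every probe set of the gene averaged, MELTF, FAM20C and MMP2 missed the threshold (adjusted p = 0.052, 0.083 and 0.0891).

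Several of the largest rises rested on 1 of the gene's probe sets. EME1, a subunit of a DNA repair nuclease, was at 132, 144 and 167 untreated and at 447, 464 and 571 at 24 h (3.11-fold, log2 change 1.64 ± 0.35 SE, adjusted p = 0.0138), but its other probe set stayed at 84.9 and 80.0 (change -0.07). FBXO11, a ubiquitin ligase subunit, was at 266, 226 and 270.2 and 503, 589 and 781 (2.34-fold, log2 change 1.23 ± 0.21 SE, adjusted p = 0.0058), and its other probe set at 157 and 139 (change -0.19); averaged over these, its adjusted p was 0.0688. GULP1, an adapter of engulfment receptors, was at 433, 341 and 339 untreated and at 911, 955 and 895 at 24 h (2.43-fold, log2 change 1.28 ± 0.13 SE, adjusted p = 0.000494). Here both other probe sets pointed up (changes 0.48 and 0.64) and 1 was called, though with every probe set averaged, dim ones included, the adjusted p was 0.0717. SIGLEC15, a receptor for sialylated glycans, was at 399, 376 and 268 untreated and at 851, 916 and 1153 at 24 h (2.73-fold, log2 change 1.45 ± 0.20 SE, adjusted p = 0.00231), with 1 probe set only.

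CXADR, the junction protein that also serves as virus receptor, rose from 106 ± 21.2 to 247 ± 41.6 (2.16-fold, log2 change 1.11 ± 0.18 SE, adjusted p = 0.0047), and PAG1, an adapter that recruits the kinase CSK to membranes, from 52.6 ± 8.6 to 143 ± 20.8 (2.31-fold, log2 change 1.21 ± 0.16 SE, adjusted p = 0.00173). TMEM87B, a Golgi membrane protein, and EPC1, a subunit of the NuA4 histone acetyltransferase complex, rose by 1.05 and 1.07 (adjusted p = 0.00147 and 0.00246), each with a second probe set called higher. With all probe sets averaged, PAG1 and EPC1 were not called (adjusted p = 0.0521 and 0.0912). RPL27A rose by 1.33 (adjusted p = 0.0047); copies of this gene elsewhere in the genome make its probe set uncertain. WDPCP, a planar polarity effector, and FAM76B rose by 1.10 and 1.24 (adjusted p = 0.00417 and 0.044) from untreated means under 50, at 26.6 ± 8.8 and 38.5 ± 8.5, so that they passed the filter through the treated arrays. This held for 40 of the called rises, and 30 called falls had a 24 h mean under 50. FAM76B kept the call in 4 of 9 runs.

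Agreement between probe sets of a gene was higher among called genes than among the rest, which the choice of the called genes by their brightest probe set favours. Of the 1142 called genes, 628 had 1 probe set of mean 50 or more and 514 had more. In 376 of the 514 (73.2%) all such probe sets had the same sign, beside 57.0% of 3832 genes in all and 54.5% of those not called. At least 1 other probe set was itself called in the same direction for 169 (32.9%), beside 13.1% of all, where 1799 of 14737 probe sets were called (12.2%). In 138 called genes 1 or more probe sets had the opposite sign, and in 10 an opposite one was itself called: DKK3, H2AX, HDLBP, KIF23, KLF6, MAGT1, PAFAH1B1, PPHLN1, SARS1 and UFM1. The sign was shared in 186 of 230 genes called lower (80.9%) and in 190 of 284 called higher (66.9%); this difference was not tested. The change of the second brightest probe set followed that of the brightest with a Pearson correlation of 0.45 over 3832 genes, in which the 2 probe sets share the same arrays. With all probe sets of a gene averaged, 42 of the 123 calls picked by the naming rule missed the threshold.

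**Figure D5:**
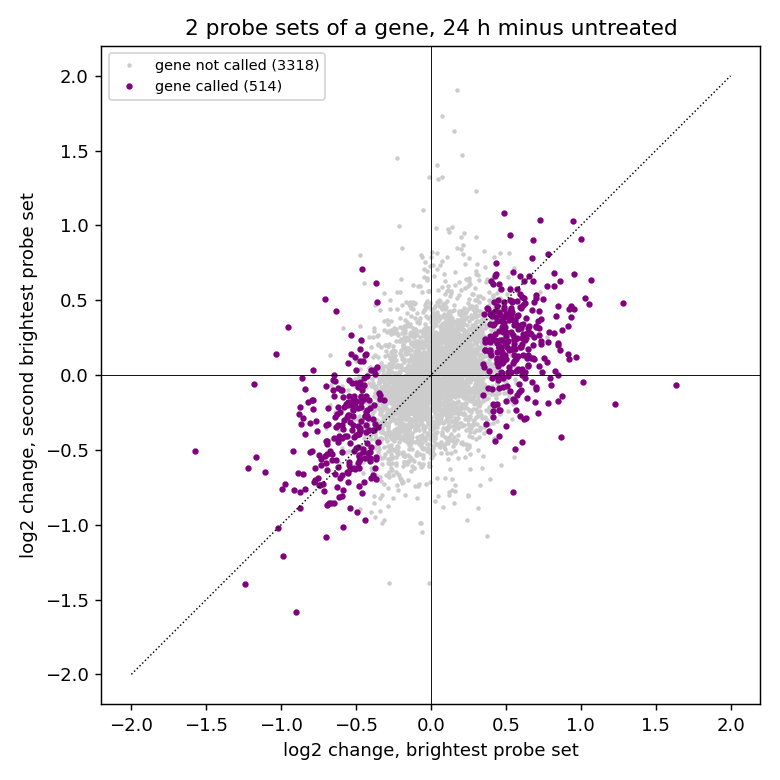
Log2 change of the second brightest against the brightest probe set of 3832 genes with more than 1 probe set of mean 50 or more (24 h minus untreated); purple points are the 514 called genes and the dotted line marks equal change. Purple points mostly share a sign on both axes, and for many the second probe set changed less, with EME1 at the far right near 0.

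The later profile differed from that at 4 h in part of these genes. Of the 30 largest changes and the 5 markers, 33 genes in all, 14 also differed between 24 h and 4 h. MSMO1 was at 1131 ± 71 at 4 h, under the untreated mean of 1463 ± 15.3, and its rise appeared only by 24 h (24 h minus 4 h 1.16, adjusted p = 0.000158). ALDH1A3 was at 258 ± 19 at 4 h, close to its untreated level (24 h minus 4 h -1.21, adjusted p = 0.000158). ID3, at 1057 ± 66.5 at 4 h, lay between the other groups (-0.67, adjusted p = 0.00613), as did LYPD1 at 177 ± 8 (-1.14, adjusted p = 0.000349) and INSIG1 at 446 ± 63 (0.69, adjusted p = 0.00942). SNAI2 was at 461 ± 62 at 4 h, which the test did not separate from 24 h (-0.31, adjusted p = 0.163). The 4 h array of replicate 2 stood near the untreated arrays for EIF5A and EME1. Of the 4 h arrays it was also the nearest to untreated for other described genes, such as CDC42EP1, SERPINH1, CST3 and RPL27A. It was not the nearest for TMEM87B, RGS4 or TIMP2. Its ACTB 5' to 3' ratio was 0.871, beside 0.682 and 0.615 on the other 4 h arrays and a mean of 0.893 untreated. The part of this array in the 4 h values was not tested.

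Markers of other cell types were mostly dim. Of 10 leukocyte markers 7 had a mean under 16, with summed intensities of 159 to 218 on untreated arrays and 198 to 207 at 24 h. Of 10 endothelial markers 6 had a mean under 16, with sums of 428 to 485 and 479 to 627; TIE1, an endothelial receptor, was lower by 0.59 (adjusted p = 0.0161, kept in 6 runs), and ROBO4 had a change of 0.40 (adjusted p = 0.0716). Of 12 epithelial markers 9 had a mean under 16, and 2 keratins carried the sums of 4186 to 4699 and 4060 to 4502. KRT8 fell from 665 ± 48.3 to 392 ± 2.3 (1.66-fold lower, log2 change -0.74 ± 0.14 SE, adjusted p = 0.00892), while KRT18, its partner, had a change of 0.06 (adjusted p = 0.751; -0.03 after quantile normalization). VIM, vimentin, the intermediate filament of fibroblasts and of this line, had a mean of 10469 and a change of 0.23 (adjusted p = 0.204; -0.03 after quantile normalization). The part of other cells in the results was not tested.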

How the data were processed

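RNA of 9 cultures was hybridised to 1-colour Affymetrix arrays of 54675 probe sets, from 6 µg of total RNA each per the labels. The deposited values are linear intensities, 1 per probe set and array; RMA and R 2.9.2 are listed in the submitters' processing notes, with no step attached, yet the values are not on a log scale and each array has a trimmed mean of 100 (2% cut at each end). That scaling removes any change in total mRNA. No detection calls were used, and the number of arrays limits the precision.

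After 62 control probe sets were set aside, the platform annotation gave 1 gene for 41091 probe sets, several for 1801 and none for 11721. Entrez identifiers of 41037 matched RefSeq and 54 kept the platform's symbol. The probe set of highest mean represented each gene. Values were transformed as log2(intensity + 16), which understates changes of dim genes. limma 3.58.1 in R 4.3.3 (lmFit, eBayes) was fitted over all 9 arrays with 1 mean per group. P-values were two-sided and Benjamini-Hochberg adjusted over the 8838 expressed genes, and 0.05 was the limit. All adjusted p-values are from this fit or its stated alternatives. The p-values weigh a group difference against the spread between these samples, and whether their cultures were set up separately is not stated. Array measures were compared by exact permutation. The script was tested on simulated data.

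The members and the 38 gene lists were chosen with earlier results of these data known. Genes were named by rule: the 15 largest called rises and falls, up to 4 members of each list with the smallest p, the 5 markers, 7 protease genes of the inhibited classes, and called genes among these whose probe sets disagree; HMGCS1, IDI1, SC5D, DHCR7, FDPS, HSD17B7, ACAT2, SREBF2, LSS and PMVK, and the 10 genes with an opposite called probe set, were named after their values were seen. Some genes picked by the rule, such as ATP6V0E1 and ATP6V1A, are not described above. Alternatives changed the genes tested, pseudocount, scaling, probe-set rule, arrays in the fit, replicate block, variance model and array weights. Promoters came from the RefSeq table (GRCh38.p14), which has no array coordinates.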

Additional observations from a re-analysis of the deposited data

Results flagged for a closer look

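For 14 of the genes with the largest changes or chosen as markers, the change at 24 h differed from that at 4 h by the test of 24 h minus 4 h in the same limma model. The level was higher at 24 h than at 4 h by 0.69 for INSIG1, 1.16 for MSMO1, 0.63 for LPIN1, 0.77 for CXADR, 0.62 for SLC31A2, 0.88 for GULP1 and 1.10 for SIGLEC15 on the log2 scale. The level was lower at 24 h than at 4 h for ID3 (-0.67), LYPD1 (-1.14), SERPINH1 (-0.86), RGS4 (-0.81), MELTF (-0.66), ALDH1A3 (-1.21) and FAM20C (-0.87). At 4 h MSMO1 lay below its untreated level (-0.37), and ALDH1A3 differed from it by 0.02.

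Of 11721 probe sets with no gene name in the annotation, 1097 had a mean intensity of 50 or more, and in the same model 127 were higher and 74 lower at 24 h than untreated; of 14737 named probe sets of that brightness, 1799 were called in either direction (12.2%).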

How the results depend on the processing

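The count of 575 higher and 567 lower became 43 and 50 over all genes, 339 and 343 with a mean of at least 20, 926 and 956 with the 6 compared arrays alone, 1256 and 1215 with array weights, and 175 and 181 with variances moderated over all genes. Averaging all probe sets of a gene gave 343 higher and 431 lower. Leaving out 1 array gave 176 to 756 higher and 162 to 762 lower. The count of 138 called genes with an opposite probe set became 235 with probe sets of at least 20 and 78 with at least 100. The 5' to 3' ratio differed by -0.196 for ACTB and by 0.031 for GAPDH. Signs turned for SARS1 averaged over all probe sets or those of at least 50 (-0.11), HBEGF averaged over all probe sets (0.0799), and after quantile normalization RPS16 (-0.00315), KRT18 (-0.0282) and VIM (-0.0318). The cause was not tested. With the replicate block, 512 were higher and 540 lower; deviations of same-numbered untreated and 24 h arrays correlated at 0.02, 0.13 and -0.04, so the numbers were not taken as pairs. Of the 123 called genes picked by the naming rule, 91 missed the threshold over all genes, 53 with variances moderated over all genes, 42 averaged over all probe sets and 4 each with the block, pseudocount 1 or quantile normalization. With pseudocount 64, median centring or array weights, 0 did. The averages over probe sets of at least 50 and the moderation over all genes were chosen after seeing the data.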

Other observations

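Some groups outside the lists above were looked at after the values were seen, and they are given as counts without a test. Among 155 expressed genes with names of the form ZNF and a number, which encode zinc finger proteins and mostly transcriptional repressors, 19 were higher and 3 lower, with a median change of 0.06; of all expressed genes, 6.51% were higher and 6.42% lower. ZNF292 rose by 1.00, ZNF302 by 0.92, ZNF174 by 0.92 and ZNF148 by 0.87. Among 134 expressed antisense, divergent and intergenic noncoding RNAs, 8 were higher and 19 lower, with a median of -0.09, beside the same shares of all expressed genes. ATP2B1-AS1 rose by 0.90 and LINC00839 fell by 0.66. The arrays do not give the strand of these probe sets here, so a noncoding RNA and an overlapping gene cannot be told apart. Further single genes kept in all 9 runs were CTHRC1, a secreted glycoprotein (change -0.97), HHIP, which binds hedgehog ligands (-0.99, a second probe set called too), S100A2 (-0.83) and DTX4 (0.83).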
